A study of Mus musculus with 20 samples.

Results

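Pyramidal cells of the mouse subiculum that project to the target labelled NA were compared with 3 other projection populations of the same region, labelled PFC, RSC and VHN. Their full names are not given in the labels. NA is usually short for nucleus accumbens, PFC for prefrontal cortex and RSC for retrosplenial cortex, while VHN stands here as written in the labels. NA held 3 of the 12 bulk RNA-seq libraries, and each of the other populations held 3. The contrast set NA against the mean of PFC, RSC and VHN, with the 3 populations weighted equally. A gene was taken to part NA from each of the others when it was called in NA against PFC, in NA against RSC and in NA against VHN, with the same sign in all 3 tests. Called means a Benjamini-Hochberg adjusted p under 0.05 in edgeR's quasi-likelihood test. Of 13916 genes tested, 7 met this rule and are named set-apart genes here, 5 of them higher in NA (0.0359% of the genes tested) and 2 lower (0.0144%).

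All cells were fluorescent neurons picked by hand out of dissected slices, and the labels describe the 3 libraries of a population as biological replicates. Strain, age, sex, genotype and the way in which projection neurons were made fluorescent are not given in the sources used here. The labels do not tie the libraries to animals, so the p-values measure only the spread between these libraries. A separate single-cell set of the same cell type carries no projection label.

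The subiculum is the main output station of the hippocampal formation, and its pyramidal cells send glutamatergic axons to cortical, striatal and diencephalic targets. The nucleus accumbens is the part of the ventral striatum best known for its role in motivation and reward, and subicular input is one of its main excitatory afferents. Genes for adhesion and guidance molecules, ion channels and receptors are those usually examined when projection neurons with different targets are compared.

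Depth ranged from 10777273 to 20904126 gene fragments per library. NA replicate 2 stood apart from its group: across genes its log2 CPM correlated with NA replicates 1 and 3 at Pearson r = 0.861 and 0.87, whereas replicates 1 and 3 correlated at 0.935. The lowest correlation within PFC was similar, at 0.876, and the lowest within RSC and VHN were 0.922 and 0.923. NA replicate 2 (11325173 fragments) and the PFC libraries (10777273 to 14019666) were also the shallowest. The part of depth in these correlations was not tested. CPM are fragment counts per 1000000 fragments of a library, scaled by TMM, an edgeR factor for differences in composition between libraries. RSC replicates 2 and 3 and VHN replicate 3 carried transcripts of inhibitory neurons, with Gad2 at 43.3, 177 and 91.9 CPM against at most 7.4 CPM in the other 9 libraries. The pyramidal marker Slc17a7, a vesicular glutamate transporter, was at 718 to 929 CPM in the NA libraries and at 513 to 1024 CPM in the others. Many results that rest on these libraries are given without them, but not every call or count that moved is given.

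Against the mean of the other 3 populations, 379 genes were higher in NA (2.72% of 13916) and 115 were lower (0.826%). In bulk material a difference in the share of cells that express a gene and a difference in RNA per cell cannot be told apart. The counts depended on single libraries. Without NA replicate 2, 116 genes were higher and 59 lower, and 105 of the 379 and 44 of the 115 remained called, while all 494 kept their sign. Without NA replicate 1, 51 were lower. Without RSC replicate 1, RSC replicate 2 or VHN replicate 2, 71, 67 and 72 were lower. Leaving out RSC replicates 2 and 3 and VHN replicate 3 together gave 204 higher and 28 lower genes. Scaling also moved the balance: 76.7% of called genes were higher with TMM, 57.5% (212 higher, 157 lower) without scaling factors and 40.3% (98 and 145) with limma on the authors' FPKM. Over all tested genes the median log2 fold change was 0.03 with TMM and −0.12 without scaling.

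**Figure D1:**
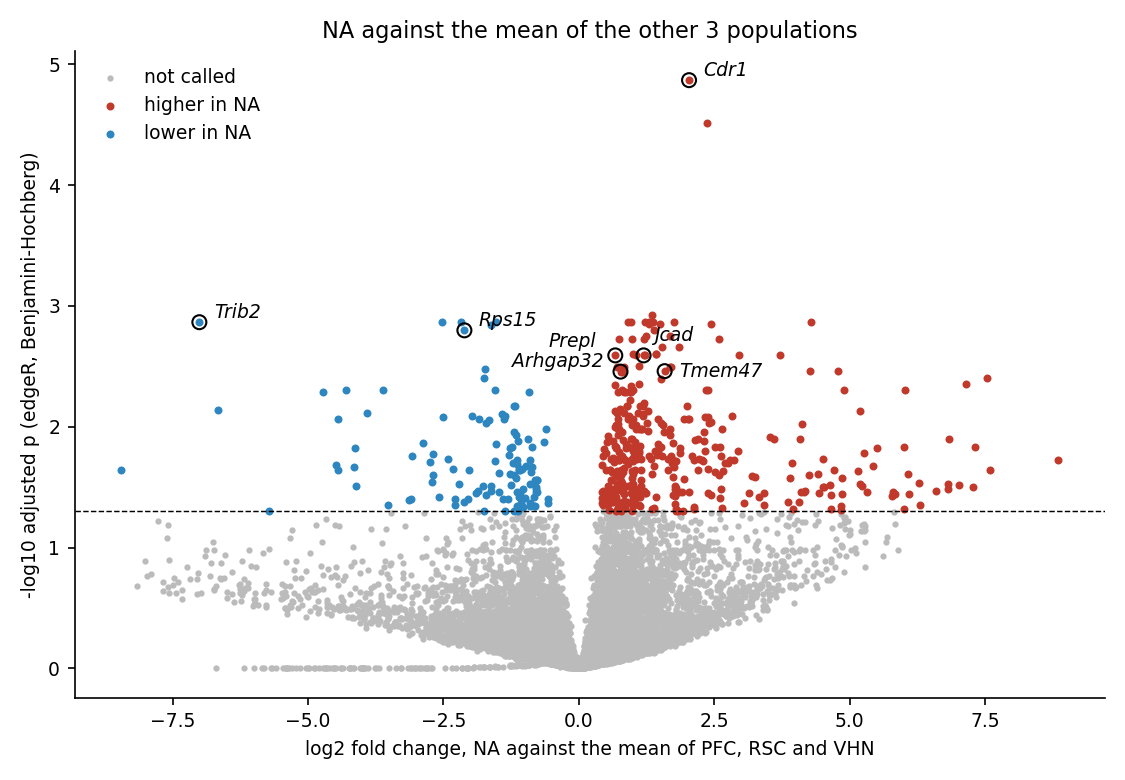
Each point is 1 of 13916 genes, with the log2 fold change of NA against the mean of PFC, RSC and VHN on the x axis and −log10 of the edgeR adjusted p on the y axis. The 379 genes called higher are red, the 115 called lower are blue, the dashed line marks an adjusted p of 0.05, and circles mark the 7 set-apart genes, of which Cdr1 has the smallest adjusted p and Trib2 the largest fold change.

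Cdr1 (ENSMUSG00000090546), which encodes cerebellar degeneration related antigen 1, was the set-apart gene with the highest level in NA, also per length (1343 FPKM). Its level was 3495, 3576 and 2472 CPM in the NA libraries. In PFC it was 1268, 1344 and 1084 CPM, in RSC 559, 647 and 663 CPM, and in VHN 354, 709 and 765 CPM. Every NA library lay above every other library, and PFC libraries lay above all RSC and VHN libraries. The NA mean of 3181 ± 615 CPM (SD, n = 3) was 2.58-fold that of PFC, 5.11-fold that of RSC and 5.22-fold that of VHN. The log2 fold change against the mean of the others was 2.03 (SE 0.17, edgeR adjusted p = 1.35e-05), and the 3 single contrasts gave 1.37 against PFC, 2.35 against RSC and 2.38 against VHN, each with an SE near 0.23 (edgeR adjusted p = 0.0129, 5.68e-05 and 0.000168).

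The locus of Cdr1 is known for a circular RNA that is made from the opposite strand and binds the microRNA miR-7 at many places, a property that can be read in the sequence itself. The 2 mature mouse miR-7 forms share their seed, bases 2 to 8, which is in capitals here and which pairs with the letters GTCTTCC in a target (RefSeq, GRCm38.p6).
miR-7a-5p: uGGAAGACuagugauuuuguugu
miR-7b-5p: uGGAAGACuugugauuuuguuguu
The annotated Cdr1 transcript is 1554 bases long and nearly all coding. GTCTTCC occurred 0 times on its own strand and 79 times on the opposite strand. The 120 bases of the opposite strand that hold the most matches, 7, lie across from bases 1146 to 1265 of the transcript, and the matches are in capitals.
strand opposite to Cdr1: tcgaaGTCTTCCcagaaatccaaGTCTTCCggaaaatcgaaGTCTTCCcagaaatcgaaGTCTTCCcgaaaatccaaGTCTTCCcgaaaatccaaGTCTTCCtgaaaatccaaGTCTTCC
Among 141767 mouse transcripts of the GENCODE M21 annotation (GRCm38), 13.8% hold GTCTTCC on their own strand and 19.0% on the opposite one. Only Cdr1 and C230004F18Rik, the long noncoding gene annotated on the opposite strand there, reach 79 matches on either strand, and Ttn comes next with 15. A match is a description of the letters and does not show that a site is bound.

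Whether the reads were counted by strand is not given in the sources used here. Fragments from Cdr1 and from RNA of the opposite strand can therefore not be told apart in the value listed for Cdr1, and no value is given for the circular RNA. The fragments listed for C230004F18Rik did not follow the same order, with 46.6, 75 and 63.5 CPM in NA, 88.6, 72.6 and 40.2 CPM in PFC, 24.3, 45.9 and 70.8 CPM in RSC and 19.9, 36.5 and 26.1 CPM in VHN. There NA and PFC libraries overlapped.

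Prepl (ENSMUSG00000024127) encodes a prolyl endopeptidase-like serine hydrolase. It was at 1950, 1780 and 1698 CPM in NA, 1018, 796 and 1013 CPM in PFC, 1175, 1271 and 1352 CPM in RSC and 1225, 1298 and 1154 CPM in VHN. The lowest NA library lay above the highest of the other 9 libraries, and the spread within NA was small (1809 ± 128 CPM, SD, n = 3). Its level was 1.92-fold that of PFC, 1.43-fold that of RSC and 1.48-fold that of VHN. The log2 fold change against the mean of the others was 0.67 (SE 0.10, edgeR adjusted p = 0.00257).

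Arhgap32 (ENSMUSG00000041444) encodes a GTPase-activating protein for small GTPases that is found at synapses. It was at 944, 1387 and 1066 CPM in NA, 640, 626 and 554 CPM in PFC, 714, 620 and 739 CPM in RSC and 629, 708 and 759 CPM in VHN. NA replicate 2 was the highest library and no NA library overlapped the others. The mean was 1.87-fold, 1.64-fold and 1.62-fold that of PFC, RSC and VHN. The log2 fold change against the mean of the others was 0.77 (SE 0.13, edgeR adjusted p = 0.0035), and 0.60 without NA replicate 2 (edgeR adjusted p = 0.0257).

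Jcad (ENSMUSG00000033960) encodes a protein of cell junctions. It was at 358, 684 and 359 CPM in NA, 187, 238 and 161 CPM in PFC, 222, 219 and 213 CPM in RSC and 176, 201 and 219 CPM in VHN. NA replicate 2 was again the highest, and the other NA libraries still lay above all 9 libraries of the other populations. Its log2 fold change was 1.20 (SE 0.19, edgeR adjusted p = 0.00257), and 0.82 without NA replicate 2 (edgeR adjusted p = 0.0218).

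Tmem47 (ENSMUSG00000025666) encodes a multi-pass membrane protein of cell junctions. It was at 137, 289 and 130 CPM in NA, 50.7, 48.2 and 54 CPM in PFC, 99, 90.8 and 51.4 CPM in RSC and 46.4, 66.4 and 60 CPM in VHN. The groups did not overlap, but the gap between the lowest NA library and the highest RSC library was narrow beside the spread within NA. Against the mean of the others the log2 fold change was 1.58 (SE 0.26, edgeR adjusted p = 0.00347), and 1.11 without NA replicate 2 (edgeR adjusted p = 0.0387).

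Trib2 (ENSMUSG00000020601), a Tribbles pseudokinase, was the set-apart gene with the largest fold change and nearly absent from NA. Only 4, 2 and 13 fragments were listed in the 3 NA libraries, or 0.249, 0.214 and 0.678 CPM. PFC held 0.693, 3.88 and 21.9 CPM (8, 56 and 233 fragments), RSC 140, 156 and 137 CPM, and VHN 183, 106 and 67.6 CPM. RSC and VHN libraries were far above all others, while PFC replicate 1 was almost level with NA replicate 3. The RSC mean was 380-fold and the VHN mean 313-fold that of NA, whereas PFC, which spread widely (8.81 ± 11.4 CPM, SD, n = 3), was 23.2-fold. The log2 fold change was −8.45 against RSC and −8.17 against VHN (edgeR adjusted p = 0.000274 and 0.000601), and −4.40 against PFC (SE 0.91, edgeR adjusted p = 0.0438).

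Rps15 (ENSMUSG00000063457) encodes a protein of the small ribosomal subunit. It was at 53.6, 18.2 and 54.5 CPM in NA, 142, 122 and 122 CPM in PFC, 236, 192 and 190 CPM in RSC and 178, 270 and 240 CPM in VHN. NA was lowest, PFC came next, and RSC and VHN were highest, with no overlap between these 3 steps. The log2 fold change was −2.11 (SE 0.30, edgeR adjusted p = 0.00159), and −1.75 without NA replicate 2 (edgeR adjusted p = 0.00273). Ribosomal protein genes have many near-identical copies in the genome, and how shared reads were assigned is not given in the sources used here, so this level is uncertain.

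**Figure D2:**
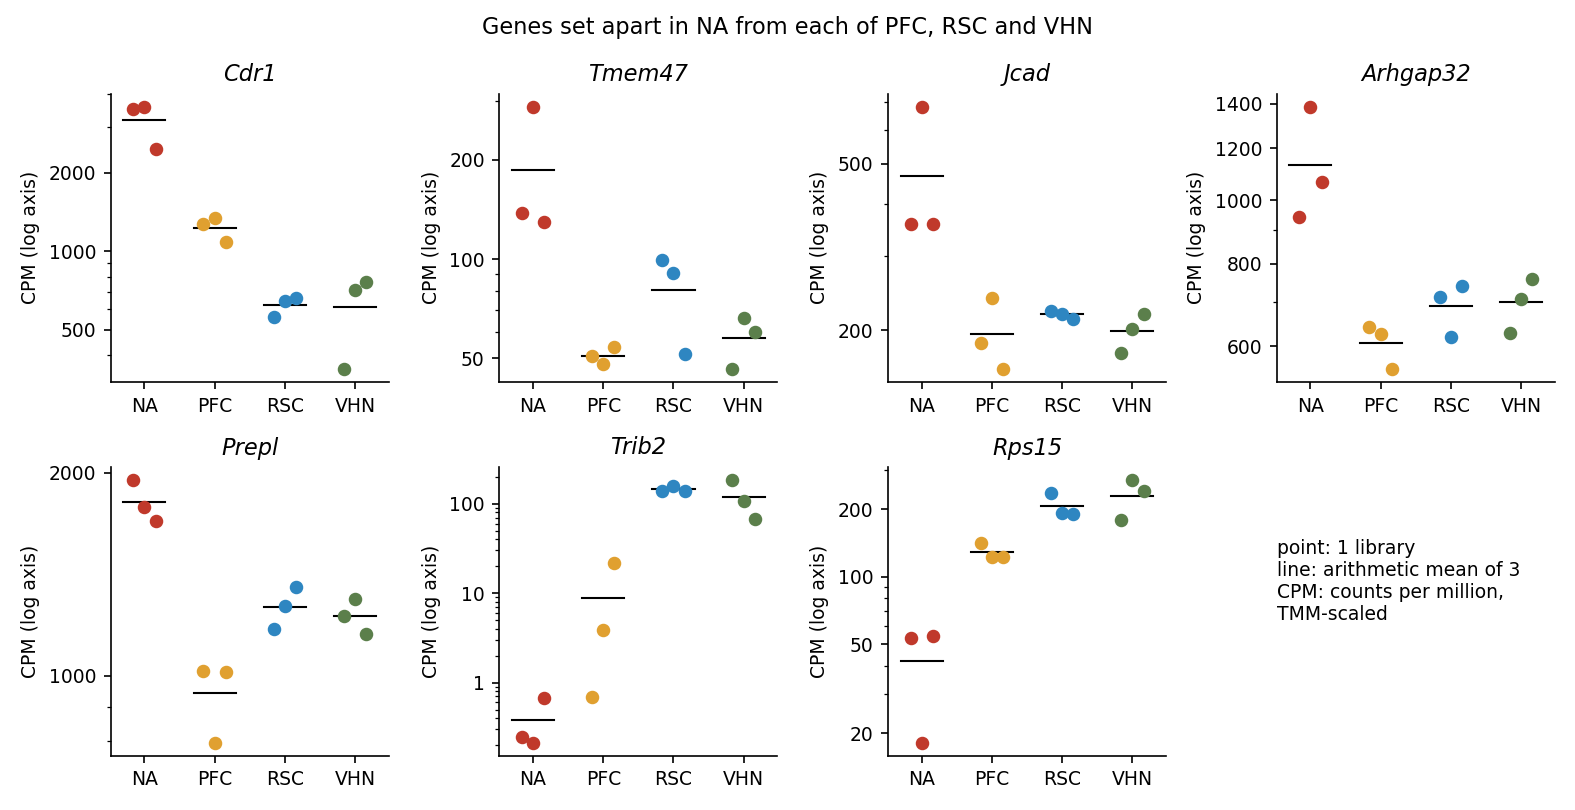
CPM per library on a log axis for the 7 set-apart genes, with 1 point per library and a line at the mean of the 3 libraries of each population. NA lies above all 9 other libraries for Cdr1, Tmem47, Jcad, Arhgap32 and Prepl and below them for Trib2 and Rps15, where PFC replicate 1 (0.693 CPM) almost meets NA replicate 3 (0.678 CPM) for Trib2.

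All 7 genes stayed called against the mean of the other 3 populations when any single library was left out, but the stricter rule did not hold for most of them. Cdr1 stayed set apart in 11 of the 12 fits that left out 1 library, Prepl and Arhgap32 in 5, Trib2, Jcad and Rps15 in 3, and Tmem47 in 2. Cdr1 was lost without PFC replicate 3. The number of set-apart genes was 38 without NA replicate 3. It was 5 without NA replicate 1, 4 without NA replicate 2 and 6 without PFC replicate 1. It was 3 without RSC replicate 1 or VHN replicate 1, and 2 without PFC replicate 2, RSC replicate 3 or VHN replicate 3. It was 1 without PFC replicate 3, RSC replicate 2 or VHN replicate 2.

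The edge of the rule was not sharp. Tmem47 was the last gene inside, with a largest edgeR adjusted p of 0.0475 over its 3 contrasts. Just outside lay Cachd1, a calcium channel-like transmembrane protein gene (0.0525), Mapk8ip2, a scaffold of JNK signalling (0.0526), the ribosomal gene Rpl37a (0.0527), the membrane protein gene Myadm (0.0552), the polysialyltransferase St8sia2 (0.0568), the metalloprotease Adamts3 (0.0586) and the ATP synthase subunit Atp5l (0.059). In 6 of these 7 genes the contrast that missed was the one with PFC, and for Mapk8ip2 it was VHN. By the same rule PFC had 2 set-apart genes that were higher and 36 that were lower, while RSC and VHN each had 0 higher and 0 lower. RSC against VHN gave 0 called genes. The mean of the other 3 populations therefore weighs in both RSC and VHN, which this fit did not tell apart. The counts of the populations were not tested against each other.

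A wider set of genes separated the NA libraries from all 9 others without passing all 3 tests. Of the tested genes, 178 were higher in every NA library than in every other library (1.28%) and 155 were lower in every one (1.11%). Among the genes called against the mean of the others, 102 of 379 and 37 of 115 had no such overlap. The population nearest to NA was PFC for 61 of the 102 higher genes and for 30 of the 37 lower ones. The same share over all tested genes was not computed. These genes were also picked by a contrast in which RSC and VHN together outweigh PFC, which favours genes far from RSC and VHN. The counts can therefore not show that NA is closest to PFC. The genes described next come from the called genes without overlap, the 15 with the smallest p in each direction. The set-apart genes were left aside, and the choice was made after values were seen.

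Cntn1, which encodes the axonal adhesion molecule contactin 1, was at 1369, 1341 and 1262 CPM in NA, 820 to 894 CPM in PFC, 530 to 728 CPM in RSC and 563 to 793 CPM in VHN. Its difference was 0.91 on the log2 scale (edgeR adjusted p = 0.00136). Slitrk2, a synapse organizer, was at 228, 208 and 190 CPM in NA, 79 to 136 CPM in PFC, 30 to 62.9 CPM in RSC and 41.3 to 51.1 CPM in VHN. For Slitrk2 the log2 fold change was 1.75 (edgeR adjusted p = 0.00136). Both genes stood highest in NA, intermediate in PFC and lowest in RSC and VHN, where the latter overlapped. Ncam1, the neural cell adhesion molecule, was at 730, 829 and 687 CPM in NA and 481 to 601 CPM in PFC, and all RSC and VHN libraries lay between 273 and 412 CPM. Scamp5, a synaptic vesicle membrane protein gene, was at 557, 454 and 360 CPM in NA, 237 to 278 CPM in PFC and 103 to 190 CPM in RSC and VHN. The semaphorin co-receptor Plxna1 reached 402, 732 and 420 CPM in NA, 329 to 385 CPM in PFC and 131 to 199 CPM in RSC and VHN. Ccn3, a secreted matricellular protein gene, was nearly constant in NA (946, 943 and 945 CPM), at 689 to 775 CPM in PFC and spread from 160 to 464 CPM in RSC and VHN. Mapk8ip2 had a different order, with 336, 422 and 288 CPM in NA, 128 to 149 CPM in PFC, 132 to 208 CPM in RSC and 154 to 218 CPM in VHN.

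Among genes lower in every NA library, St8sia2 makes the polysialic acid that is attached to Ncam1. It was at 1.43, 0.965 and 0.678 CPM in NA, and at 7.48 to 14.5 CPM in PFC, 7.94 to 21.5 CPM in RSC and 16.6 to 41.6 CPM in VHN. Its log2 fold change was −3.92 (edgeR adjusted p = 0.00774), opposite in sign to the 0.96 of Ncam1 (edgeR adjusted p = 0.00136). Adamts3 was at 0.497, 0.107 and 1.46 CPM in NA and at 7.54 to 29.4 CPM in the other 9 libraries. Cachd1 was at 4.47, 1.72 and 3.55 CPM in NA and at 10.4 to 34.7 CPM in the others. For Adamts3 and Cachd1 the ranges of PFC, RSC and VHN overlapped one another. Crym, which encodes the thyroid hormone-binding protein crystallin mu and is listed here among markers of CA1, was at 40.9, 28.6 and 56.8 CPM in NA. It was at 62.6 to 112 CPM in PFC, 114 to 212 CPM in RSC and 175 to 266 CPM in VHN, a graded order. Crym had a log2 fold change of −1.76 (edgeR adjusted p = 0.00395). It does not stand for the CA1 markers, of which 10 were tested. Crym was the only one called, and 6 of the 10 had a positive log2 fold change, with a median of 0.264. Nsg1, an endosomal protein gene of neurons, was at 62.8, 19 and 69.6 CPM in NA, 83 to 111 CPM in PFC and 163 to 249 CPM in RSC and VHN.

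**Figure D3:**
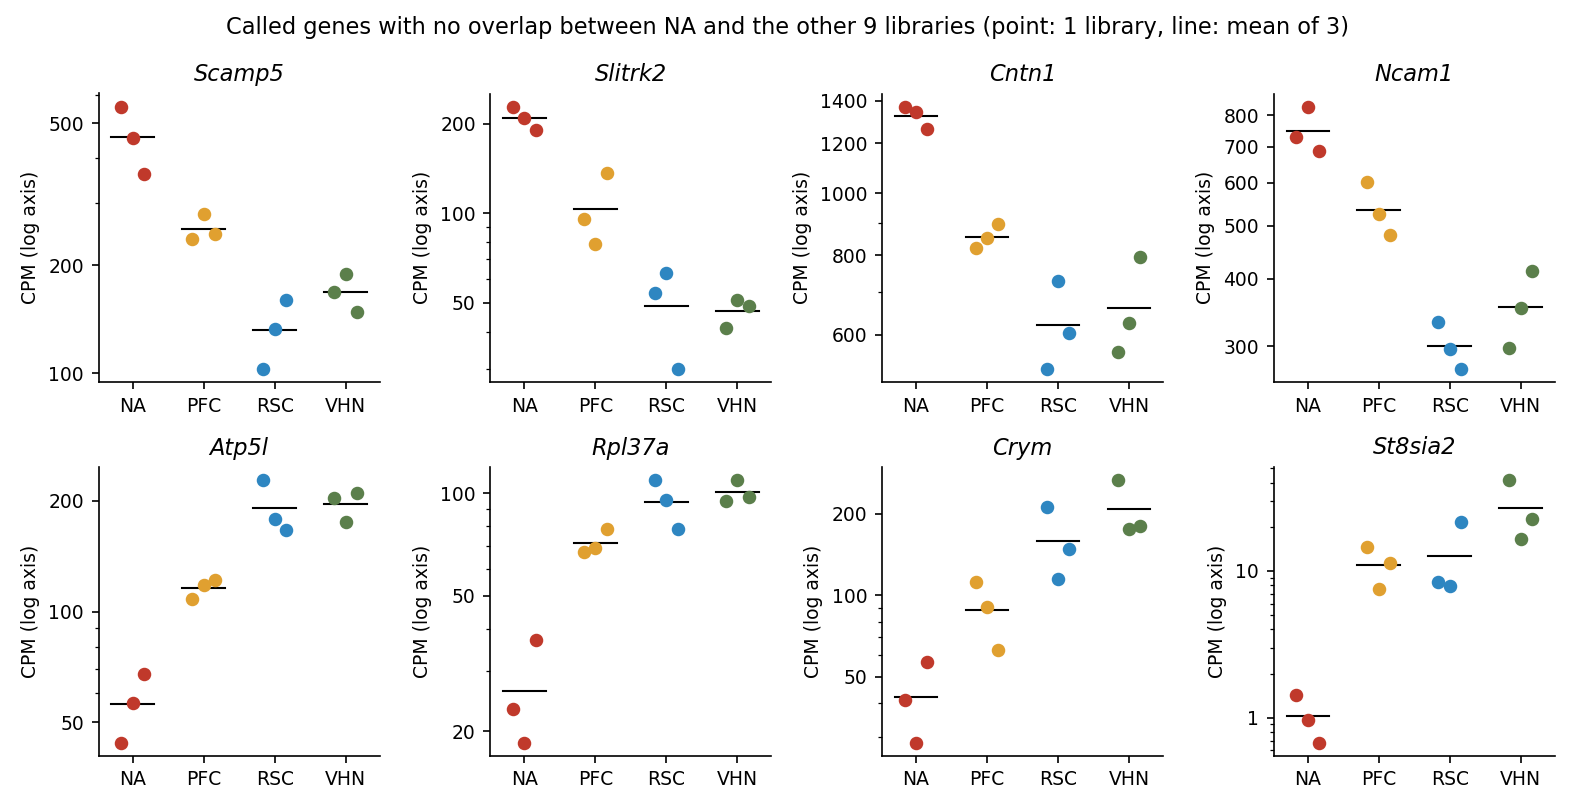
CPM per library on a log axis for 8 called genes without overlap between the 3 NA libraries and the 9 others, the 4 with the smallest p in each direction apart from the set-apart genes, with a line at the mean of 3. Cntn1, Slitrk2, Ncam1 and Scamp5 are highest in NA, and Atp5l, Rpl37a, Crym and St8sia2 are lowest there. PFC lies between NA and the other 2 populations in 7 of the 8 panels, and for St8sia2 PFC and RSC overlap.

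Taken one population at a time, NA was closest to PFC in the number of genes called. Against PFC, 56 genes were higher in NA (0.402%) and 5 lower (0.0359%). Against RSC, 483 were higher (3.47%) and 328 lower (2.36%), and against VHN 225 were higher (1.62%) and 158 lower (1.14%). The 3 comparisons share the NA libraries. The count against PFC was 152 without NA replicate 3. It lay between 22 and 37 without NA replicate 2, PFC replicates 2 or 3, any 1 RSC library or VHN replicate 2, and between 41 and 49 without each of the other libraries.

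Several genes that parted NA from PFC did not part NA from RSC or VHN. Etv1, an ETS transcription factor of projection neurons, was at 2797, 2459 and 2618 CPM in NA and 772, 562 and 1101 CPM in PFC, while its mean was 3081 CPM in RSC and 2380 CPM in VHN. Its log2 fold change against PFC was 1.69 (SE 0.18, edgeR adjusted p = 0.000631). The adhesion receptor Adgra1 was at 495, 383 and 388 CPM in NA and 170, 105 and 121 CPM in PFC (log2 fold change 1.67, edgeR adjusted p = 0.000768), with means of 523 CPM in RSC and 598 CPM in VHN. For both genes PFC was the low population, and no NA library overlapped PFC. Ntm, an IgLON adhesion molecule, was at 456, 861 and 313 CPM in NA and 103, 86.2 and 151 CPM in PFC (log2 fold change 2.26, edgeR adjusted p = 0.00684). Ldb2, a cofactor of LIM domain transcription factors, was at 687, 644 and 527 CPM in NA and 275, 226 and 304 CPM in PFC (log2 fold change 1.21, edgeR adjusted p = 0.00684), and its NA libraries also lay above all RSC and VHN libraries. Besides Trib2 and Rps15, 3 genes were lower in NA than in PFC. Cpne6, a copine of excitatory neurons, was at 249, 165 and 235 CPM in NA and 583, 647 and 541 CPM in PFC (log2 fold change −1.45, edgeR adjusted p = 0.00684). Syn2, encoding synapsin II, was at 167, 124 and 236 CPM against 534, 464 and 297 CPM (log2 fold change −1.29, edgeR adjusted p = 0.0383). Kcnab1, an auxiliary subunit of potassium channels, was at 13.9, 1.93 and 7.04 CPM against 64.4, 78.1 and 147 CPM (log2 fold change −3.65, edgeR adjusted p = 0.0129). Its NA libraries also lay below all RSC and VHN libraries (means 30.5 and 23 CPM), but those contrasts did not pass (edgeR adjusted p = 0.0509 and 0.161).

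Besides the set-apart Cdr1 and Trib2, the genes of smallest p against RSC and VHN included several that did not part NA from PFC. Lars2, a mitochondrial leucyl-tRNA synthetase gene, averaged 14021 ± 2935 CPM in NA (SD, n = 3). Its PFC mean was 9538 ± 2663 CPM, and the means of RSC and VHN were 1080 ± 295 and 1925 ± 898 CPM. Prkca, encoding protein kinase C alpha, averaged 805 CPM in NA and 711 CPM in PFC and 244 and 171 CPM in RSC and VHN. The neuropeptide gene Nts and the synaptotagmin gene Syt2 went the other way, with 21.3 ± 3.71 CPM of Nts and 4.36 ± 1.79 CPM of Syt2 in NA. Nts averaged 332 CPM in RSC and 293 CPM in VHN, and Syt2 502 and 233 CPM. None of these 4 genes passed against PFC.

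Gene lists of neuronal function are described next by counts against the mean of the other 3 populations, for which 2.72% of all genes tested were higher and 0.826% lower. List counts depended on single libraries too. Without NA replicate 2, presynaptic genes had 1 higher and 1 lower member, calcium-binding and signalling genes 2 and 2, and transcription factors 3 and 0. Without RSC replicates 2 and 3 and VHN replicate 3, presynaptic genes and calcium channels each had 2 higher and 1 lower. Calls lost without NA replicate 2 are given at the gene where its values are described, and were lost also for Cdh7, Kcnab3, Scn4b, Gabrb2, Chrna7, Gpr12, Gpr101, Gpr158, Nrg3, Fgf10, Calm3, Neurod6, Etv1, Ntm, Dnajb5, Cyp51 and S100b. Synaptic adhesion molecules had 24.1% of their tested genes higher, the largest share among the 20 lists in this fit. Other lists had a larger share without scaling (calcium channels, 4 of 20 against 8 of 58), with limma on FPKM (calcium-binding and signalling genes, 5 of 38 against 2 of 58) and without RSC replicates 2 and 3 and VHN replicate 3 (cadherins, 5 of 27 against 8 of 58). Of 58 members tested, 14 were higher and 3 lower, and 41 did not pass, with a median log2 fold change of 0.41 against 0.03 over all genes. Cntn1 and Slitrk2, given above, had the smallest p. Cadm1, a SynCAM, averaged 254 CPM in NA, 247 CPM in PFC, 71.6 CPM in RSC and 126 CPM in VHN (log2 fold change 0.96, SE 0.16, edgeR adjusted p = 0.00458). Kirrel3, a homophilic adhesion molecule, averaged 93.9, 88.7, 3.08 and 18.9 CPM in the same order (log2 fold change 2.44, edgeR adjusted p = 0.0091). Cadm1 and Kirrel3 did not pass against PFC (edgeR adjusted p = 0.968 and 0.974), and of the 14 higher members Ntm alone did. The lower members were the teneurin Tenm3, the IgLON Lsamp and Igsf11. Lsamp averaged 253 CPM in NA against 509, 591 and 472 CPM in PFC, RSC and VHN (log2 fold change −1.04, edgeR adjusted p = 0.0225). No NA library overlapped the others for Lsamp, although NA replicate 3 (410 CPM) was almost level with the lowest VHN library (415 CPM). Without NA replicate 2 the list had 6 higher and 0 lower members (edgeR adjusted p from 0.0749 to 0.115 for the 3 lower ones), and with limma on FPKM it had 2 and 1.

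Of 52 axon guidance genes tested, 7 were higher and 0 lower by edgeR (22 had an unadjusted p under 0.05, and DESeq2 called 10 higher and 4 lower). Their median log2 fold change was 0.465. The higher ones were the plexins Plxna1 and Plxna2, the netrin receptor Neo1, the ligands Slit1, Slit2 and Sema3a and the Slit receptor Robo1. Slit2 averaged 133 ± 46.5 CPM in NA (SD, n = 3) and 39.2 ± 7.62, 4.19 ± 5.84 and 56.3 ± 41.9 CPM in PFC, RSC and VHN, a log2 fold change of 2.66 (edgeR adjusted p = 0.0234), or 2.45 without NA replicate 2 (edgeR adjusted p = 0.0967). Without that library 2 members of the list were called higher, Plxna1 and Neo1, and with limma on FPKM 0. Plxna2 averaged 508 ± 4.03 CPM in NA, close to the 471 CPM of PFC, and 227 and 263 CPM in RSC and VHN.

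Among 27 members of the cadherin superfamily, 4 passed upward and 1 downward. Pcdh20 averaged 139 CPM in NA and 137 CPM in PFC, with 0.442 CPM in RSC and 19.2 CPM in VHN (log2 fold change 3.72, edgeR adjusted p = 0.00257). Cdh4 averaged 48.9 CPM in NA and 24.8, 0.0161 and 7.01 CPM in PFC, RSC and VHN (log2 fold change 4.90, edgeR adjusted p = 0.00501). The lower one, Cdh7, averaged 10.3 CPM in NA and 7.95 in PFC against 102 and 64.9 CPM in RSC and VHN. Extracellular matrix proteins moved both ways, 4 higher and 4 lower of 31. Most of these called members were shared with PFC. By their means, Spock1 and Nell2 were high in both NA and PFC beside RSC and VHN. Igfbp5, which had the smallest p of the list, Igfbp4 and Sparcl1 were low in both. Without NA replicate 2 the list had 3 higher members and 1 lower member. Fstl5, a follistatin-like glycoprotein gene, averaged 63.6 CPM in NA against 23.6, 4.34 and 10.6 CPM in PFC, RSC and VHN without overlap (log2 fold change 2.63, edgeR adjusted p = 0.0325). Bcan, the perineuronal net protein brevican, averaged 0.611 CPM in NA against 6.16, 14.1 and 16 CPM in PFC, RSC and VHN, again without overlap (log2 fold change −4.14, edgeR adjusted p = 0.0215). Without NA replicate 2 neither Fstl5 nor Bcan passed (edgeR adjusted p = 0.0959 and 0.0794).

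Among ion channels, the 20 calcium channel subunits tested included 4 that were higher and 1, Cacng3, that was lower. Cacna2d1, the alpha2delta subunit bound by gabapentin, averaged 472 and 643 CPM in NA and PFC, well above the 88.4 and 125 CPM of RSC and VHN (log2 fold change 1.30, edgeR adjusted p = 0.0014). Cacna1h, a T-type channel, had its highest mean in NA, 243 ± 128 CPM (SD, n = 3), against 86.1 ± 10, 106 ± 20.2 and 148 ± 24.2 CPM in PFC, RSC and VHN (log2 fold change 1.13, edgeR adjusted p = 0.0144). It rested on NA replicate 2, without which its log2 fold change was 0.61 (edgeR adjusted p = 0.18). The same held for the N-type channel Cacna1b, with 446 ± 488 CPM in NA (SD, n = 3), whose log2 fold change fell from 1.73 to 0.29 (edgeR adjusted p = 0.02 and 0.699). Of 41 voltage-gated potassium channel genes, Kcnd3 was higher and Kcnab1 and Kcnab3 were lower. Kcnd3, an A-type channel, averaged 225 CPM in NA against 147, 14.5 and 41.3 CPM in PFC, RSC and VHN (log2 fold change 2.34, edgeR adjusted p = 0.00829). Of 20 other potassium channel genes only the GIRK subunit Kcnj3 passed by edgeR, at 700 ± 164 CPM in NA against 394, 444 and 359 CPM in PFC, RSC and VHN (log2 fold change 0.82, edgeR adjusted p = 0.0128). Its NA libraries did not overlap the others. Of 18 sodium and HCN channel genes, the modulator Fgf13 was higher and the beta subunit Scn4b lower.

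Of 30 glutamate receptor genes 3 were higher (10%), namely the NMDA subunit Grin2b, the kainate subunit Grik2 and the AMPA receptor partner Shisa7. Grik2 averaged 246 CPM in NA against 178, 122 and 146 CPM in PFC, RSC and VHN without overlap (log2 fold change 0.74, edgeR adjusted p = 0.0188), and none of the 3 passed without NA replicate 2 (the smallest edgeR adjusted p was 0.0892, for Grik2). Among 18 inhibitory receptor subunits, Gabrb2, a beta subunit, was above all 9 libraries of the other populations (log2 fold change 0.46, edgeR adjusted p = 0.0343). Receptors for monoamines, acetylcholine, adenosine and cannabinoids had 3 higher genes of 32 (9.38%): the muscarinic receptor Chrm1, the serotonin receptor Htr2c and the nicotinic subunit Chrna7. Chrna7 averaged 37.3 CPM in NA against 22, 3.6 and 7.43 CPM in PFC, RSC and VHN (log2 fold change 2.15, edgeR adjusted p = 0.0128). Of 27 peptide and orphan receptor genes, Gpr12 and Gpr158 were higher (7.41%) and Gpr101 was lower.

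Of 26 neuropeptides and secreted signals, the growth factors Nrg3 and Fgf10 were higher and Nts and C1ql3 lower. C1ql3, a secreted synaptic organizer, averaged 25.6 CPM in NA against 51.5, 174 and 114 CPM in PFC, RSC and VHN (log2 fold change −1.98, edgeR adjusted p = 0.00819). Calcium sensors, buffers and their effectors had 6 higher members and 1 lower member of 38. Hpcal4, a neuronal calcium sensor, averaged 739 CPM in NA and 748 in PFC, against 158 and 267 CPM in RSC and VHN. The calcineurin subunit Ppp3r1 averaged 1884, 1818, 928 and 858 CPM in NA, PFC, RSC and VHN. Calm3, a calmodulin gene, averaged 724 CPM in NA against 497, 480 and 529 CPM, without overlap (log2 fold change 0.53, edgeR adjusted p = 0.0345). Of 42 presynaptic genes, 5 were higher and Syt2 was lower. Rph3a, the Rab3 effector rabphilin, averaged 572 CPM in NA and 208, 198 and 198 CPM in PFC, RSC and VHN (log2 fold change 1.51, edgeR adjusted p = 0.00927). NA replicate 2 carried part of this difference, since without it the log2 fold change was 0.90 (edgeR adjusted p = 0.131).

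Of 65 transcription factor genes tested, 8 were higher and 0 lower by edgeR (21 had an unadjusted p under 0.05, and DESeq2 called 9 higher and 2 lower). Tbr1, a T-box factor of glutamatergic cortical neurons, was at 206, 494 and 148 CPM in NA, 161, 119 and 154 CPM in PFC, 36.7, 68.3 and 52.6 CPM in RSC and 84.1, 93.5 and 91.3 CPM in VHN. NA and PFC overlapped and both lay above RSC and VHN. Its log2 fold change was 1.68 (edgeR adjusted p = 0.00323) and 1.01 without NA replicate 2 (edgeR adjusted p = 0.0387). Neurod6, a bHLH factor of cortical projection neurons, was at 324, 386 and 379 CPM in NA and 278, 363 and 542 CPM in PFC, and between 59.9 and 177 CPM in RSC and VHN. Zfhx4 and St18 averaged 11.1 and 8.18 CPM in NA, below their PFC means of 54.7 and 33 CPM, with at most 0.604 CPM in RSC and VHN. Etv1, the factor that parted NA from PFC, passed against the mean of the others with a log2 fold change of 0.53 (edgeR adjusted p = 0.0424).

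Immediate early genes, which follow recent activity, gave 0 calls of 22 by edgeR (6 had an unadjusted p under 0.05, and DESeq2 called 2). Of 22 heat shock and stress genes, the chaperone cofactor Dnajb5 was higher. Of 36 genes for GPI anchor synthesis and aminoacyl-tRNA synthetases, Lars2 and Piga were higher, and Piga averaged 10.3 CPM in NA and 16.2 CPM in PFC, 0 in RSC and 0.166 in VHN. Of 23 cholesterol and lipid synthesis genes, Cyp51 was higher, with means of 112 CPM in NA and 33.8, 99.5 and 78.9 CPM in PFC, RSC and VHN. No list other than that of ribosomal protein genes held a set-apart gene.

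**Figure D4:**
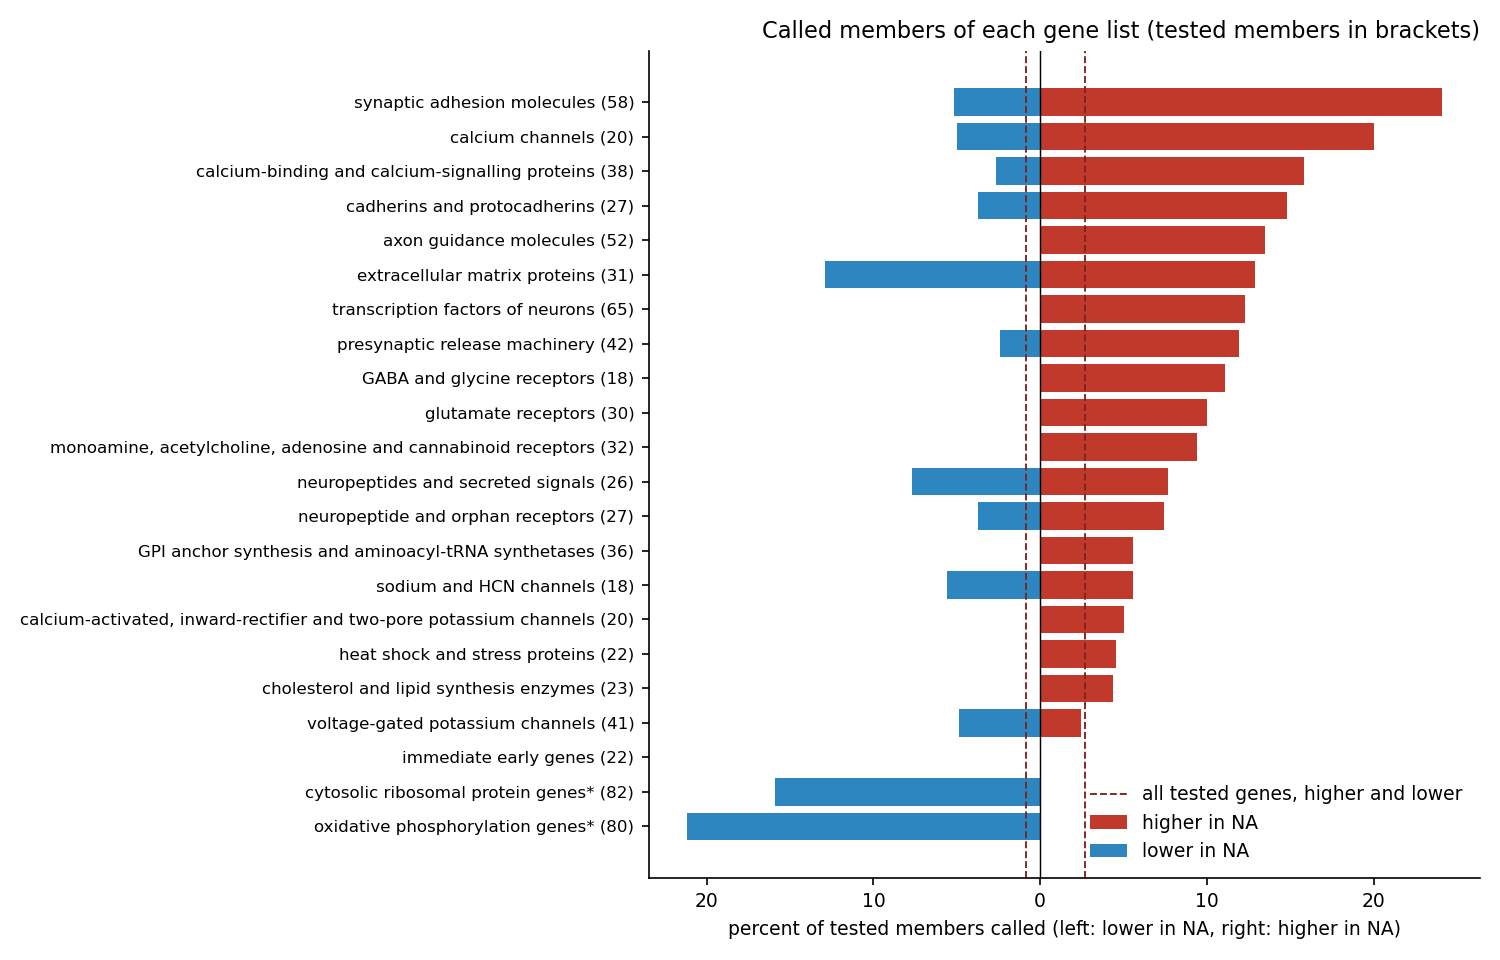
Percent of tested members of each list that were called against the mean of the other 3 populations, higher to the right and lower to the left, with the number tested in brackets and dashed lines at the 2.72% and 0.826% of all genes. Synaptic adhesion molecules have the longest bar to the right (24.1%), and oxidative phosphorylation (21.2%) and ribosomal protein genes (15.9%), marked with an asterisk because they were chosen after values were seen, have only bars to the left.

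Rps15 did not stand alone among ribosomal protein genes. After its values were seen, all tested cytosolic ribosomal protein genes and all tested nuclear genes of oxidative phosphorylation, the mitochondrial pathway of ATP production, were counted. Of 82 ribosomal protein genes, 13 were lower and 0 higher by edgeR (46 had an unadjusted p under 0.05, and DESeq2 called 34 lower and 0 higher), with a median log2 fold change of −0.73. Of 80 oxidative phosphorylation genes, 17 were lower and 0 higher by edgeR (42 had an unadjusted p under 0.05, and DESeq2 called 28 lower and 0 higher), with a median of −0.60. Rpl37a was at 23.2, 18.5 and 37 CPM in NA, 67.3 to 78.3 CPM in PFC and 78.3 to 109 CPM in RSC and VHN (log2 fold change −1.74, edgeR adjusted p = 0.0033). Atp5l was at 44.1, 56.6 and 67.8 CPM in NA, 108 to 122 CPM in PFC and 167 to 228 CPM in RSC and VHN (log2 fold change −1.54, edgeR adjusted p = 0.00136). By their means NA was lowest, PFC intermediate and RSC and VHN highest for both genes. The summed level of the ribosomal protein genes was 4078 to 5261 CPM in NA and 4957 to 5458 CPM in PFC, which overlapped, against 7755 to 8367 CPM in RSC and 7421 to 8588 CPM in VHN. For oxidative phosphorylation it was 7935 to 9491 CPM in NA and 8306 to 8403 CPM in PFC, against 13770 to 15090 CPM in RSC and 12490 to 13280 CPM in VHN. As sums, both groups were low in NA and PFC alike and did not set NA apart. Without NA replicate 2 the lower members numbered 11 and 7, and without RSC replicates 2 and 3 and VHN replicate 3 they numbered 2 and 2. The medians moved less than the counts: they were −0.83 and −0.65 without NA replicate 2, and −0.71 and −0.57 without the RSC and VHN libraries.

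**Figure D5:**
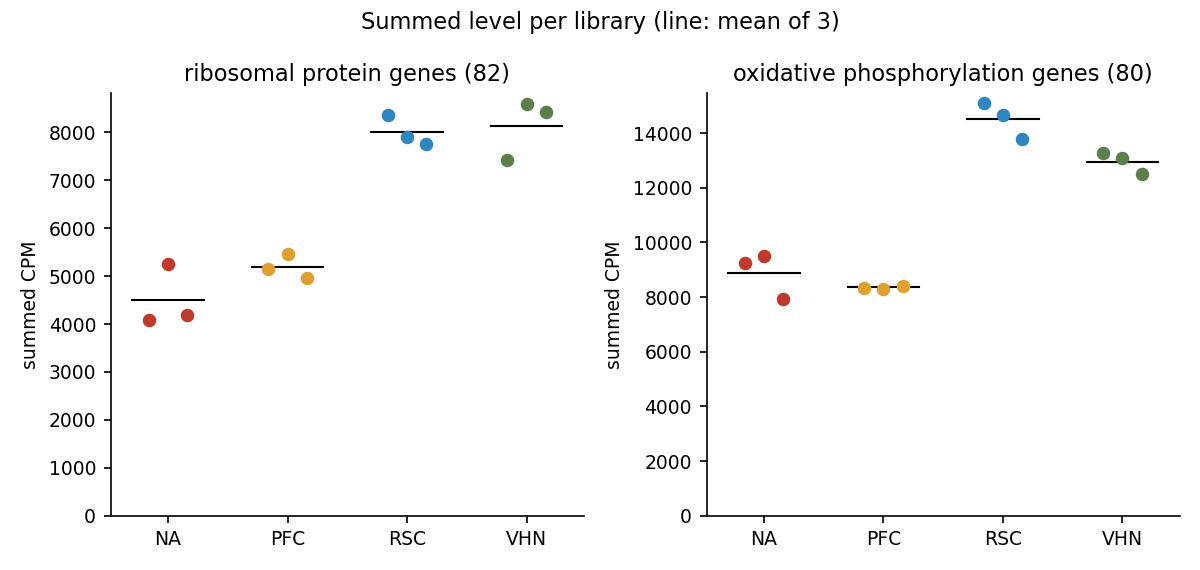
Summed CPM of 82 ribosomal protein genes and 80 oxidative phosphorylation genes, with 1 point per library and a line at the mean of 3. NA and PFC libraries share one level (4078 to 5458 CPM for ribosomal protein genes, 7935 to 9491 CPM for oxidative phosphorylation) and all RSC and VHN libraries lie above it.

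Gene length moved with the contrast. The median exonic length was 5946.5 bases for the 379 higher genes and 3468 for the 115 lower ones, against 4460 over all tested genes. From the shortest to the longest 20% of genes, the median log2 fold change went from −0.23 through −0.08, 0.05 and 0.11 to 0.13, and the share called higher from 1.13% to 4.89%. The trend was weaker against PFC (from −0.13 in the shortest to 0.02 in the longest) than against RSC (−0.28 to 0.14) and VHN (−0.36 to 0.18). Rps15 (630 bases) is short and Arhgap32 (17179 bases) is long, whereas Cdr1 (1554 bases) is short and higher. The part of length, or of RNA quality, in the result was not tested.

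Markers of other cells were low in NA, with exceptions. Of 6 astrocyte markers tested, S100b and Sox9 were called higher. The list summed to 354 to 677 CPM in NA, 288 to 399 CPM in PFC, 145 to 394 CPM in RSC and 70.8 to 212 CPM in VHN, most of it Slc1a2, a glutamate transporter gene also transcribed in pyramidal cells. All 6 tested markers had a positive log2 fold change, with a median of 3.03, and 4 had an unadjusted p under 0.05. Of the other markers on the list, Aqp4 was at 0.124, 3.97 and 4.07 CPM in NA and at 0 to 3.27 CPM elsewhere. Slc1a3 was at 0.683, 0.857 and 8.29 CPM in NA and at most 2.22 CPM elsewhere. Aldoc was at 2.42, 1.29 and 16.5 CPM in NA and 1.49 to 15 CPM elsewhere. These 3 markers overlapped between NA and the other libraries, and NA replicate 3 was the highest library for each. Gja1 was at 0.186, 0.214 and 0.574 CPM in NA and at 0 elsewhere, while Gfap and Aldh1l1 were at 0.0621 and 0.311 CPM in NA replicate 1 and at 0 in all other libraries. Sox9 was at 60.8 CPM in NA replicate 2 and under 1 CPM in the other NA libraries, and its call was lost without replicate 2 (edgeR adjusted p = 0.768). S100b was at 30.6, 24.4 and 29.9 CPM in NA, 3.33 to 5.2 CPM in PFC, at most 0.577 CPM in RSC and 0.21, 15.1 and 41.3 CPM in VHN. Of 9 interneuron markers tested 0 passed by edgeR (0 had an unadjusted p under 0.05, and DESeq2 called 0), and 1 was higher without RSC replicates 2 and 3 and VHN replicate 3. Vip was at 0 in all libraries and Gad1 at 0 to 1.93 CPM in NA. Reln went the other way, at 21.1, 19.1 and 19.6 CPM in NA and at most 15.1 CPM in the other libraries. It had no overlap but did not pass (log2 fold change 2.05, edgeR adjusted p = 0.337). The whole interneuron list summed to 258 to 914 CPM in NA, 628 to 1014 in PFC, 423 to 708 in RSC and 386 to 511 in VHN, most of it Cck, which pyramidal cells also transcribe. Oligodendrocyte precursor markers summed to at most 0.107 CPM in NA, and the endothelial markers Cldn5 and Slco1a4 were at 0 in all 12 libraries. The only endothelial and mural marker tested was Rgs5, at 36.6, 23.8 and 51 CPM in NA, 54.5 to 91.8 CPM in PFC, 5.65 to 10.6 CPM in RSC and 1.31 to 21.5 CPM in VHN. It did not pass against the mean of the others (log2 fold change 1.15, edgeR adjusted p = 0.307), and did without RSC replicates 2 and 3 and VHN replicate 3 (log2 fold change 2.07). The part of these other cells in the results was not tested.

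In the single-cell set, 348 of 384 wells on 4 plates had at least 1000 detected genes. Without projection labels these cells can show only how widely a gene is detected in this cell type. Arhgap32 had a count in 81.6% of cells (95% exact binomial interval 77.1 to 85.5%), Prepl in 73.6% (68.6 to 78.1%), Jcad in 42.5% (37.3 to 47.9%) and Tmem47 in 38.5% (33.4 to 43.8%). Rps15 was found in 99.4% of cells (97.9 to 99.9%) and Trib2 in 20.4% (16.3 to 25%). These intervals cover counting error only. Cdr1, the set-apart gene with the highest level in bulk, had a count in only 12 of 348 cells (3.45%, interval 1.79 to 5.95%), and 35 counts in all. Its mean was 0.835 CPM over cells, against 1411 CPM over the 4 bulk populations, whereas Prepl had 86.9 CPM over cells and 1311 CPM in bulk, Arhgap32 132 and 782, Jcad 45.6 and 270, and Tmem47 31.7 and 93.6. Cdr1 had by far the widest gap of these 5 genes. Of the 2 set-apart genes lower in NA, Trib2 was also lower over cells (19.3 CPM) than in bulk (68.2 CPM). Rps15 went the other way, with 434 CPM over cells and 152 CPM in bulk. C230004F18Rik, on the opposite strand, was found in 32.2% of cells (27.3 to 37.4%). The 2 data sets were counted separately, and the cause of these differences between cells and bulk was not tested. Across cells, after centring on the plate, the Pearson correlation of log2(CPM + 1) between set-apart genes higher in NA ranged from −0.0378 to 0.213 over 10 pairs (348 cells that share plates and differ in depth), which is too weak in sparse counts to be read as co-expression.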

How the data were processed

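For the bulk libraries the authors deposited estimated counts of fragments per gene, not normalized, in the layout that Cuffdiff writes for read groups, per the file headers. Of the positive values 8.51% were not whole, and all were rounded here. Beside them stand FPKM, which the authors normalized for gene length and library size, per the file headers. For single cells the authors deposited whole-number counts, 1 column per well. The genome build was mm9 per the submitters' processing notes, and aligner, software versions and annotation are not given in the sources used here. Libraries are numbered from 0 in the table and from 1 in the labels, and an equal order was assumed, which affects the names within a population and no group.

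Symbols were matched by Ensembl identifier to GENCODE M21 (32894 of 37607 genes, 87.5%). The 92 spike-in rows were 0 throughout and were left out, and 178 entries marked FAIL were kept. Genes were filtered with filterByExpr (smallest count 10) in edgeR 4.0.16, which left 13916, and 1 TMM-scaled quasi-likelihood fit over all 12 libraries (R 4.3.3, common coefficient of biological variation 0.736, 8 residual degrees of freedom) gave every contrast, with Benjamini-Hochberg adjustment over all genes tested. The script was tested on simulated data. Log2 fold changes come from this fit, and folds are ratios of mean CPM. DESeq2 1.42.0, limma 3.58.1 on log2(FPKM + 0.1) and log2(FPKM + 1), other scalings and filters, and fits without single libraries were alternatives. The populations compared, the gene lists and the tests were chosen with earlier results of these data known. The text names all set-apart genes (all 7 had a symbol, no overlap and 5 CPM or more in the higher populations) and, in each list, up to 3 genes of lowest adjusted p. Other genes, singled out for a called difference without overlap or for a call that rested on 1 library, were chosen after their values were seen. Some members of the lists are not reported here.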

Additional observations from a re-analysis of the deposited data

How the results depend on the processing

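The log2 fold changes of the 7 set-apart genes against the mean of the other 3 kept their sign and their call in all alternatives run, except that Prepl and Arhgap32 (0.67 and 0.77) miss a required absolute log2 fold change of 1. The counts were less stable. Genes higher against the mean (379) numbered 678 with DESeq2, 1124 without a filter on low counts, 212 without scaling, 98 and 95 with limma on log2(FPKM + 0.1) and log2(FPKM + 1), 227 when the absolute log2 fold change had to reach 1, 153 without NA replicate 2 and PFC replicate 3, and 204 without RSC replicates 2 and 3 and VHN replicate 3. Genes lower (115) numbered 416 with DESeq2, 249 without a filter and 28 without those RSC and VHN libraries. For NA against PFC (61) the values were 464 with DESeq2, 514 without a filter, 23 without scaling, 28 and 23 with limma, 16 without the RSC and VHN libraries and 2 when only the 2 populations entered the fit. NA against RSC (811) gave 1671, 1353 and 110 with DESeq2, without a filter and without those libraries, and NA against VHN (383) gave 1059, 904, 183 and, with only the 2 populations fitted, 161. Set-apart genes higher in NA (5) numbered 32 with DESeq2, 80 without a filter, 8 with a robust spread, 3 with the fold threshold, 1 and 0 with limma, and 1 without scaling, without NA replicate 2 and PFC replicate 3, without the RSC and VHN libraries or with 2 populations fitted. Those lower (2) numbered 35, 22 and 6 with DESeq2, no filter and a robust spread, and 0 without scaling, without the RSC and VHN libraries and with 2 populations fitted.

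Leaving out 1 library at a time gave 116 to 560 higher and 51 to 137 lower genes, 22 to 152 against PFC, 387 to 882 against RSC, 136 to 437 against VHN, and 1 to 22 set-apart genes higher and 0 to 16 lower. Over all 18 pairs of same-numbered libraries the deviations from the population means correlated at −0.0261 to 0.0376. Taken over all genes, such values cannot show whether same-numbered libraries share an animal or a batch, which the labels do not give. With a replicate block 293 genes were higher and 95 lower, and 6 genes were set apart, 1 of them lower: Trib2 and Tmem47 lost that status and Mapk8ip2 gained it. The rise of many counts with DESeq2 and without a filter was not traced to a cause. Precision is limited by the 3 libraries per population, and calls with a wide spread within NA, such as Cacna1b, rest on 1 library.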
